A study of Mus musculus with 9 samples.

Results

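In the deposited ratio of sample to reference, a set of 118 array probes differed at least 2-fold between 2 clones of mouse embryonic stem (ES) cells. The ratio differed little within the second clone when tamoxifen was added. These probes are 0.281% of the 42006 distinct probes on the array and 0.477% of the 24757 that were bright enough to be tested. The members were chosen by their measured values. The log2 ratio of sample to reference had to differ by at least 1 between the group means of the untreated Zscan4-ERT2 clone and the control clone, and by less than 0.5 between the treated and untreated cells of the Zscan4-ERT2 clone. The 3 control arrays were not allowed to overlap the 6 arrays of the Zscan4-ERT2 clone. The signal also had to be well above background on every array of the brighter clone. Of the 118, 47 were higher and 71 were lower in the Zscan4-ERT2 clone. Where a group was too dim to measure, the size of a difference is only a bound, which was under 2-fold at some members. With another background correction (normexp at offset 50) and loess, 19 of the 47 and 23 of the 71 still differed at least 2-fold. Because the values below were used for the choice, the clone and tamoxifen differences of the members are descriptions and carry no test.

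All cells came from V6.5, a male ES cell line of a C57Bl/6 by 129 hybrid, grown on gelatin in medium with LIF. The control group (called control) was clone #2, from a control transfection, cultured for 3 days. The group called Tmx- was clone #18, transfected with pCAG-Zscan4-ERT2, in which the CAG promoter drives a fusion of Zscan4 to ERT2, cultured for 2 days without tamoxifen. The group called Tmx+ was the same clone #18, cultured for 2 days with 200 nM tamoxifen. Each group had 3 arrays, and the labels do not say whether these were separate cultures, so the spread between arrays may be technical. Each genotype is 1 clone, and the clones also differ in culture time, so transgene, clonal origin and days in culture cannot be told apart in any clone difference given here.

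Zscan4 encodes a zinc finger protein of the early mouse embryo that cultured ES cells express now and then, each in a small share of cells. Fusion to ERT2, a ligand-binding domain derived from the estrogen receptor, keeps a protein from acting in the nucleus as long as tamoxifen is absent. Clones of one ES cell line grow from single cells, and each carries its transgene at its own place in the genome together with whatever expression state its founder cell had, so stable differences between clones are a known feature of such experiments. For a difference that is there without tamoxifen and remains with it, the measured means of treated and untreated cells differed by less than the limit set above. The limit holds for these means and does not bound the effect of the ligand itself.

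No gene name or genome position stands beside any probe in the deposited files, so the members are called by probe ID. The sequences of the 9 members with the largest differences, all higher in the Zscan4-ERT2 clone, are shown because they identify the transcripts that the following values are about. Capitals mark AATAAA, the hexamer that signals polyadenylation near the end of many messenger RNAs.
Z00026567-1: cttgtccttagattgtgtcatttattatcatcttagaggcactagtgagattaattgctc
Z00026972-1: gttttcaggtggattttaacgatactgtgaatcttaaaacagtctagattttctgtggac
Z00064853-1: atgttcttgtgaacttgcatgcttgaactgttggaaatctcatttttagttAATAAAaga
Z00021599-1: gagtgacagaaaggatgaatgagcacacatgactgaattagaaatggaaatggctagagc
Z00029506-1: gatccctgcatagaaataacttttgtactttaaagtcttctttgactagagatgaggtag
Z00025402-1: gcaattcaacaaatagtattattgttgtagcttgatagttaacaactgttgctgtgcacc
Z00021096-1: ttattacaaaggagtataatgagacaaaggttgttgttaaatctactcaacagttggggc
Z00063386-1: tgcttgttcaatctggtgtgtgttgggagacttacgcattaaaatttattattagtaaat
Z00070002-1: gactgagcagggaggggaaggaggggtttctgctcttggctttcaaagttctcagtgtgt

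Among the members lower in the Zscan4-ERT2 clone, the sequences of 4 are shown, the first of them for the largest difference in the deposited ratio, which is only a bound, and the other three because they have the largest differences among probes that were well above background on all 9 arrays.
Z00025949-1: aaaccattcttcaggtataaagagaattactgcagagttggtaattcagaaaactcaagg
Z00021623-1: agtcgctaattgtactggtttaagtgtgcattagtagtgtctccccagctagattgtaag
Z00016045-1: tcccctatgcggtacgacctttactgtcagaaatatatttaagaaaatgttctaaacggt
Z00014114-1: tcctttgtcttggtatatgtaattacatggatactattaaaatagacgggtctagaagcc

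Each of the 9 two-colour arrays carried the ES cell RNA in Cy3 and one common reference in Cy5. The reference pooled RNA of 11 mouse cell lines with ES cell RNA from a 129 line. A probe's level is its log2 ratio of Cy3 over Cy5, so a level of 0 is that of the reference and a difference of 1 between groups is 2-fold. Mean Cy3 intensity was 1243 to 2151 per array, the median local background 43 to 47, and 58.0% to 63.3% of probes were well above background. No spot was saturated, and no member had a flagged spot. On slide 1 were all 3 control arrays together with Tmx- replicate 1, slide 2 held Tmx- replicates 2 and 3 with Tmx+ replicates 1 and 2, and slide 3 held Tmx+ replicate 3. Over the tested probes the median SD within a group was 0.101 in Tmx-, against 0.0501 in control and 0.0546 in Tmx+. Without gene names, the Zscan4 transcript, the ES cell markers and the markers of other cell types could not be read, so neither the transgene nor the cell type was checked.

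The rule was met in unequal steps in the 2 directions. In Tmx-, 293 probes were at least 1 above control, 87 of these were bright on all 6 Zscan4-ERT2 arrays, 77 also did not overlap control, and 47 also had a tamoxifen difference under 0.5. In the other direction 360 probes were at least 1 below control, 191 were bright on all control arrays, 150 did not overlap, and 71 met all criteria. Brightness alone kept out 40 probes in the first direction and 35 in the second, and overlap alone kept out 0 and 2.

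The limits of the rule fell in dense parts of both ranges. Just inside the limit on the clone difference lay Z00050890-1 at 1.01, Z00064627-1 at 1.02 and Z00023386-1 at 1.03, and just outside it Z00074308-1 at 0.99, with Z00038760-1 and Z00023662-1 both at 0.98. For the lower members the probes just inside were Z00038353-1 at -1.003, Z00018081-1 at -1.004 and Z00001000-1 at -1.015, and those just outside Z00035482-1 and Z00016634-1 at -0.99 and Z00070458-1 at -0.98. At the limit on the tamoxifen difference, Z00060458-1 at -0.49, Z00045777-1 at 0.47 and Z00031210-1 at 0.46 were the last higher members, while Z00025863-1, Z00059520-1 and Z00029004-1 missed it at 0.50. Among lower probes Z00041537-1 and Z00005499-1 at 0.49 and Z00030502-1 at 0.48 were inside, and Z00035195-1 at 0.50, Z00000421-1 at 0.51 and Z00047677-1 at 0.52 were outside. Probes on either side of a limit thus differ by less than the median SD within a group, so membership at the edge is not a measured distinction.

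In the deposited ratio the sizes of the 47 higher members were spread unevenly, with wide gaps between some of them. Their differences between Tmx- and control had a median of 1.30 and ran from 1.01 to 8.19. Differences of 1 to 1.5 were found at 31 members, 1.5 to 2 at 2, 2 to 3 at 0, and 3 or more at 14. The widest gap, of 1.47, lay between 3.36 and 1.89 in the deposited ratio. Another, of 1.4, lay between 6.53 and 5.13, with 9 members above it. With normexp correction at offset 50 and loess the widest gap closed. Z00076236-1 and Z00027485-1 from above it were then at 1.29 and 1.19, and Z00030069-1 from below it at 1.35. With that processing no higher member lay between Z00063769-1 at 2.40 and Z00022549-1 at 1.49, so a gap remained at another place. The 71 lower members had narrower gaps, the widest of 0.57. Their median was -1.24, from -3.82 to -1.003, with 49 of size 1 to 1.5, 11 of 1.5 to 2, 9 of 2 to 3 and 2 of 3 or more.

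**Figure D1:**
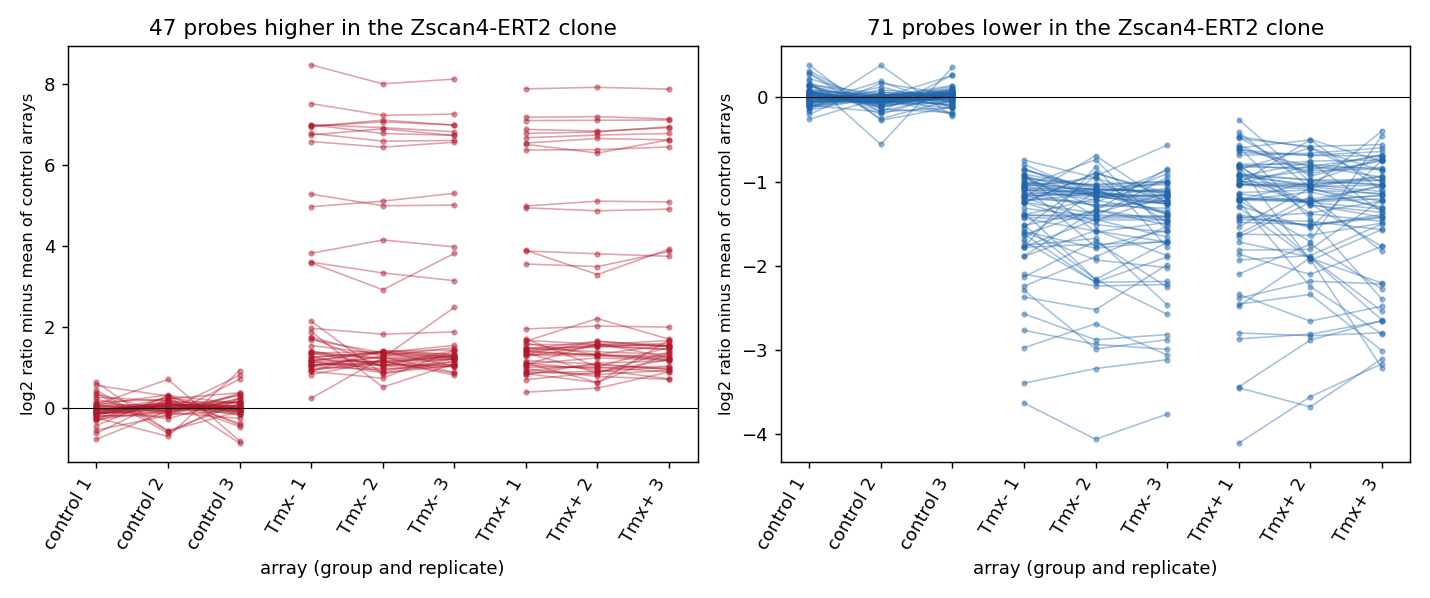
Level of each member on each of the 9 arrays as the log2 ratio minus the mean of the 3 control arrays, with 47 probes higher in the Zscan4-ERT2 clone on the left and 71 lower on the right; each line joins the 3 arrays of a group for 1 probe. On the left 14 probes stand 3 or more above control and the others lie mostly between 1 and 2, and on the right the differences run without such a gap down to about -4.

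The largest clone difference in the deposited ratio was at Z00026567-1. Its level was -4.32, -4.07 and -4.82 on the control arrays, 4.06, 3.60 and 3.71 on the Tmx- arrays, and 3.47, 3.51 and 3.47 on the Tmx+ arrays. The transcript it reads was thus below the reference in control and above it on every array of the Zscan4-ERT2 clone, a difference of 8.19. The probe's Cy3 signal was 9.76, 11.4 and 6.40 in control, which is not well above background on any array, and 2386 to 2857 in Tmx- and 1725 to 2344 in Tmx+. Where a group gave no signal well above background, the size of a difference is only a bound. The bound sets the mean of the brighter group against, on each dim array, the lowest Cy3 signal that was well above background or the probe's own signal if that was higher, after normalization of the single channels, and with no dye swap it is open to dye bias. For Z00026567-1 it gave a level at least 82.2-fold higher in Tmx- than in control.

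Of the 9 members with differences of 6.5 or more, 2 were measured well above background on all 9 arrays, so that their sizes are not bounds, although both depend on the processing. Z00070002-1 had levels of -5.38, -5.27 and -5.11 in control, 1.32, 1.18 and 1.31 in Tmx-, and 1.11, 1.12 and 1.19 in Tmx+. Its Cy3 signal was 117, 112 and 117 in control and 8764 to 13378 on the 6 other arrays, and its clone difference was 6.53. Z00025402-1 had levels of -5.91, -5.87 and -5.64 in control, 1.18, 0.97 and 0.92 in Tmx-, and 0.86, 0.93 and 0.97 in Tmx+, a clone difference of 6.83. With normexp at offset 50 and loess the difference was 5.44 for Z00070002-1 and 4.84 for Z00025402-1. Both transcripts were low in control cells relative to the reference and above the reference in clone #18 with or without tamoxifen. For Z00070002-1 and Z00025402-1 the mean levels were 1.27 and 1.02 in Tmx-, and 1.14 and 0.92 in Tmx+.

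Z00064853-1, the probe with AATAAA near its 3′ end, was bright enough to count as measured on 2 control arrays out of 3. Its level was -6.98, -6.78 and -6.78 in control, 0.10, 0.26 and 0.14 in Tmx-, and 0.33, 0.35 and 0.29 in Tmx+. In control its transcript was far below the reference, and in clone #18 it was close to the reference with or without tamoxifen. Z00063386-1 was well above background on 1 control array, with levels of -5.07, -6.07 and -5.40 in control, 1.27, 1.08 and 1.09 in Tmx-, and 1.03, 1.14 and 1.11 in Tmx+. The spread of its control values, an SD of 0.51 (n = 3), exceeds the 0.11 and 0.06 of the other groups.

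The 4 others of the 9 had no control array well above background, and in clone #18 they lay well above the reference. Z00026972-1 was at -4.18, -3.95 and -3.97 in control, 3.48, 3.19 and 3.22 in Tmx-, and 3.06, 3.06 and 3.07 in Tmx+, at least 30.9-fold higher in Tmx- than in control. Z00021599-1 was at -3.61, -2.99 and -4.51 in control, 3.25, 3.36 and 3.28 in Tmx-, and 3.17, 3.13 and 3.21 in Tmx+, at least 32.0-fold higher in Tmx-. The order of these 2 by bound is the reverse of their order by measured difference. Z00029506-1 was at -4.45, -3.91 and -4.19 in control, 2.81, 2.73 and 2.63 in Tmx-, and 2.59, 2.62 and 2.76 in Tmx+, at least 22.2-fold higher in Tmx-. Z00021096-1 was at -3.10, -2.71 and -3.12 in control, 3.76, 3.92 and 3.75 in Tmx-, and 3.53, 3.32 and 3.64 in Tmx+, at least 24.4-fold higher in Tmx-. On every array of clone #18 these transcripts, like that of Z00026567-1, were more abundant than in the pooled reference.

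The remaining members above the widest gap had smaller differences. Z00063769-1 was higher by 5.13, but its control values of -3.50, -3.96 and -2.34 had an SD of 0.84 (n = 3), and it was well above background on 1 control array. Z00031814-1 was higher by 5.09 and was also bright on 1 control array. With normexp at offset 50 and loess, Z00063769-1 was at 2.40 and Z00031814-1 at 2.63. Z00076236-1 was higher by 3.98, with no control array above background and a bound of at least 7.32-fold. Z00027485-1, at 3.44 and at least 9.03-fold, and Z00022549-1, at 3.36, complete the 14. These last probes rank below the 12 that the naming rule takes and were named after their values were seen.

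**Figure D2:**
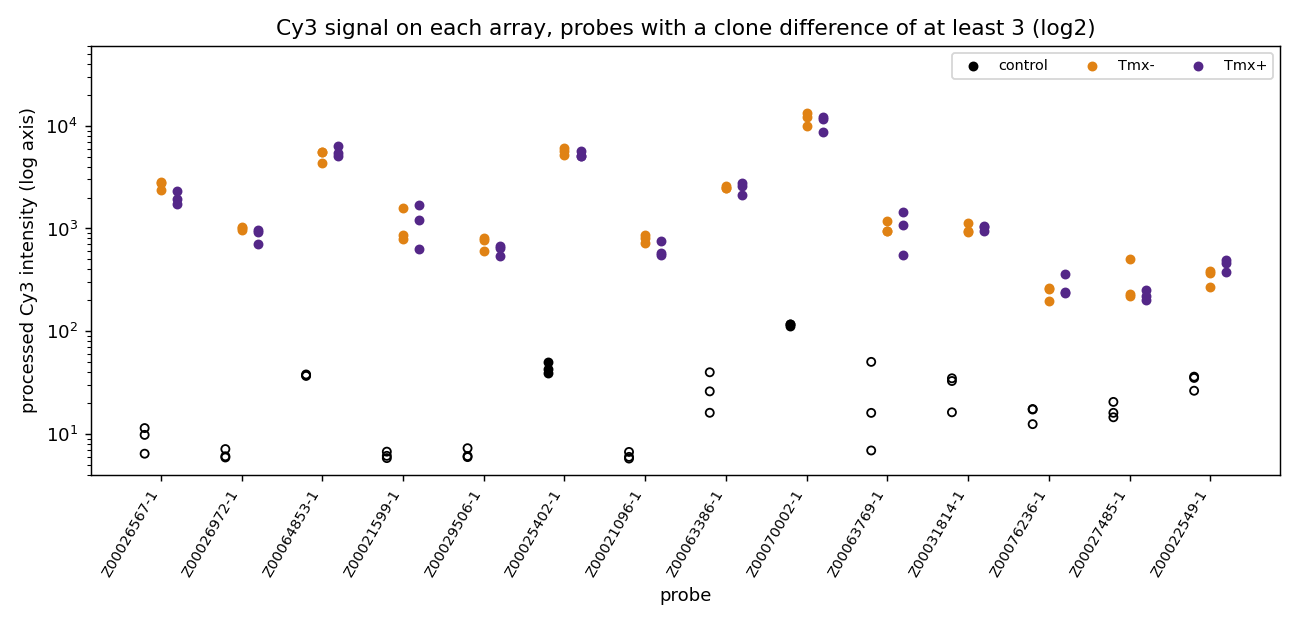
Processed Cy3 intensity (log axis) of the 14 higher members with clone differences of 3 or more, 1 point per array, control in black, Tmx- in orange and Tmx+ in purple; open points mark groups in which fewer than 3 arrays were well above background. For each probe all Tmx- and Tmx+ points lie above all control points, and only Z00025402-1 and Z00070002-1 have filled control points.

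The other 33 higher members can be described by their range. In control 22 of the 47 were well above background on all 3 arrays, 10 on 1 or 2 arrays, and 15 on none. Relative to the reference, 22 members were below it in control and above it in Tmx-, 13 were below it in both, and 12 above it in both. The gap between the nearest control array and the nearest array of clone #18 had a median of 0.91 over the 47 and was as small as 0.02. The member with the widest spread in the ratio was Z00030099-1, with 1.19, 1.20 and 1.20 in control and 1.44, 2.44 and 3.68 in Tmx-. Its Cy3 signal did not follow this order, at 99.5, 57.5 and 72.4 on the same Tmx- arrays. The reference was well above background on only 1 array at this probe.

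The lower members started from a wider range of levels in control cells. Relative to the reference, 21 of the 71 were above it in control and 9 still were in Tmx-. The largest difference in the deposited ratio was at Z00025949-1, with -3.60, -3.90 and -3.71 in control, -7.37, -7.80 and -7.50 in Tmx-, and -7.85, -7.29 and -6.90 in Tmx+. Its Cy3 signal was not well above background on any array of clone #18, and the measured difference of -3.82 stands beside a bound of at least 2.97-fold lower in Tmx- and at least 2.78-fold lower in Tmx+. Its size beyond that bound is not measured, so its rank among the lower members is not either.

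The best measured of the large reductions was at Z00021623-1, which was well above background on all 9 arrays. Its level was 1.22, 1.26 and 1.25 in control, -1.52, -1.69 and -1.75 in Tmx-, and -1.56, -1.59 and -1.55 in Tmx+, and its Cy3 signal went from 3911 to 5802 in control down to 472 to 643 in clone #18. This transcript was above the reference in control cells and below it in clone #18, a difference of -2.90. Z00016045-1 had -0.58, -0.71 and -0.56 in control, -3.19, -3.50 and -3.44 in Tmx-, and -3.49, -3.43 and -3.28 in Tmx+. Z00014114-1 had -1.42, -1.50 and -1.37 in control, -3.72, -4.42 and -4.31 in Tmx-, and -3.77, -4.09 and -3.91 in Tmx+. Z00023022-1, a brighter probe with Cy3 signals of 1952 to 2142 in control and 385 to 481 in clone #18, had -1.38, -1.42 and -1.29 in control, -3.46, -3.60 and -3.59 in Tmx-, and -3.75, -3.55 and -3.58 in Tmx+. For all 4 of these probes the Tmx- and Tmx+ arrays overlapped each other.

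Of the other members among the 12 largest reductions, Z00031807-1 differed by -3.24 and was well above background on 1 array of each clone #18 group. With normexp at offset 50 and loess its difference was -1.45. Z00036202-1 (-2.91) and Z00036244-1 (-2.03) were above background on no array of clone #18, with bounds of at least 1.60-fold and at least 1.65-fold lower in Tmx-. Z00025446-1 (-2.29) and Z00010916-1 (-2.00) were above background on all Tmx- arrays and on 1 Tmx+ array. Z00041537-1 (-2.03) and Z00043027-1 (-1.97) were above it on 1 Tmx- array and no Tmx+ array. Over all 71, Tmx- was measured on all 3 arrays for 48 members, on 1 or 2 for 18 and on none for 5, and 46 members were well above background on all 9 arrays.

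With tamoxifen the higher members moved in no common direction. Their difference between Tmx+ and Tmx- ran from -0.49 to 0.47 with a median of 0.01, above 0 at 24 and below 0 at 23. Of the lower members, 49 were above 0 and 22 below, with a median of 0.13 and a range from -0.42 to 0.49. In the deposited ratio 49 of the 71 thus lay nearer to control in Tmx+ than in Tmx-. Of the 71, 10 were well above background on no Tmx+ array and 11 on only 1 or 2, and 5 on no Tmx- or Tmx+ array. Where a group was not well above background, the size of this difference, its being under 0.5 included, is not measured. Where both groups were so dim, its sign is not measured either. The count of 49 includes such members. Over all tested probes the median was 0.00, 50.03% were above 0 and 86.8% were within 0.5 of 0. Both comparisons use the same Tmx- arrays, which favours a tamoxifen difference opposite to the clone difference.

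**Figure D3:**
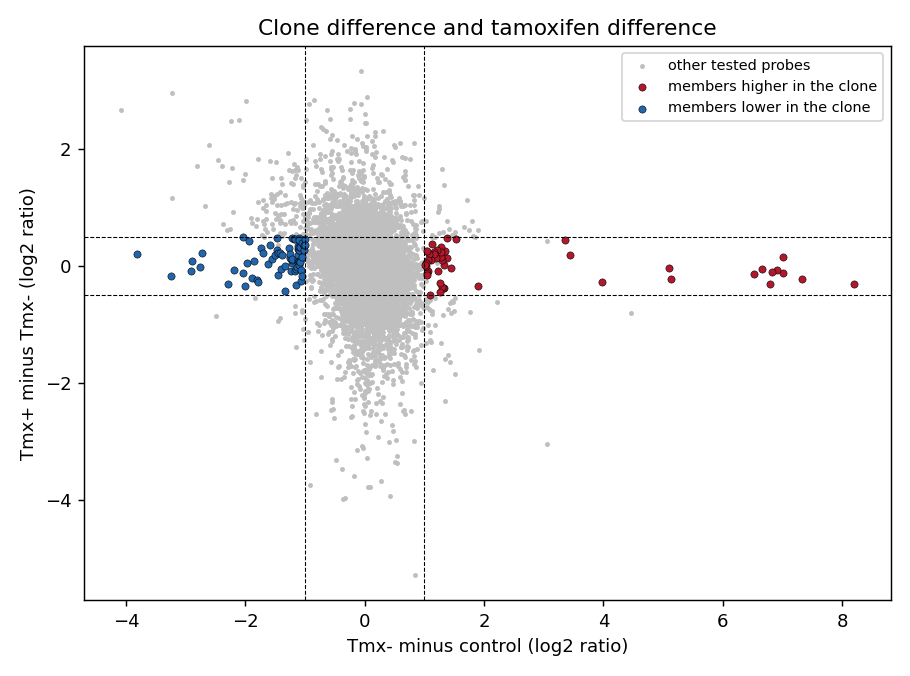
Difference between Tmx+ and Tmx- against the difference between Tmx- and control, both in log2 ratio, for the 24757 tested probes (gray) with the higher members in red and the lower members in blue; dashed lines are the limits of the rule. The 9 probes on the far right, with clone differences of 6.5 or more, all lie between -0.31 and 0.16 on the vertical axis.

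In limma's fit over all tested probes, with an adjusted p below 0.05, 38.8% of probes were called in either direction in Tmx+ against Tmx-, and 19.8% were called higher. Of the higher members 6 were called, 4 of them higher in Tmx+, and of the lower members 20 were called, all 20 higher in Tmx+. The 3 Tmx+ arrays lay above the 3 Tmx- arrays without overlap at 25.6% of tested probes and below them at 24.4%. Among higher members this was so at 8 and 10, and among lower members at 23 and 1. With Cy3 alone, 1 lower member was called, higher in Tmx+. When slide was fitted as a fixed block, 24 lower members were called higher and 3 lower. Since the rule capped this difference, nothing is read from these counts, and the members are called here by the rule and not as unaffected by tamoxifen.

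The values of some members called with tamoxifen show the courses that the rule allows. Z00018081-1, a lower member, had -2.27, -2.30 and -2.26 in control, -3.24, -3.32 and -3.28 in Tmx- and -2.76, -2.86 and -2.84 in Tmx+. Its Tmx+ arrays lay between the other groups and overlapped neither, so that it regained 0.46 of a difference of -1.004. Z00001000-1 took the same course, with -1.59, -1.67 and -1.65 in control, -2.65, -2.67 and -2.63 in Tmx- and -2.26, -2.33 and -2.28 in Tmx+. Z00031210-1 went further from control instead, with -3.43, -3.18 and -3.37 in control, -1.64, -1.95 and -1.77 in Tmx- and -1.37, -1.30 and -1.32 in Tmx+. Z00000357-1, a higher member, went back toward control by 0.45, from -2.41, -2.54 and -2.53 to -2.80, -2.98 and -3.05, against -3.72, -3.75 and -3.84 in control. The called higher members also included Z00015698-1, Z00060294-1 and Z00059654-1 with rises and Z00034875-1 with a fall. These 6 and the 2 lower members are named after their values were seen, except where they lie at a limit of the rule.

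Compared with control, the Tmx+ cells still differed by 0.60 to 7.89 at the higher members and by -3.61 to -0.54 at the lower ones. In Tmx- against control, limma called 12.1% of tested probes higher and 11.2% lower. Of the 47 higher members 43 were called, and of the 71 lower members 69, which the rule makes likely and from which nothing is read. The higher members that were not called, Z00030099-1, Z00039883-1, Z00007745-1 and Z00022261-1, and the lower ones, Z00071968-1 and Z00046756-1, are named after their values were seen.

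The members can also be counted against the other clone differences of their size. Among probes bright on all arrays of the brighter of the Tmx- and control groups and without overlap between those groups, 16 were at least 3 higher in Tmx- than in control, and 14 of these are members while 2 came back by 0.5 or more. Of the 13 that were 1.5 to 2 higher, 2 are members, 4 came back and 7 went further. Of the 74 that were 1 to 1.5 higher, 31 are members, 28 came back by 0.5 or more and 13 went further. Among probes 1 to 1.5 lower, 49 of 122 are members and 62 came back, and among those 2 to 3 lower, 9 of 24 are members and 14 came back. Of the 5 that were at least 3 lower, 2 are members and 3 came back. The difference between these shares was not tested, and the shared Tmx- arrays bear on all of them.

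Control and Tmx- arrays lay together only on slide 1, so the clone difference within a slide rests on 1 array of clone #18, Tmx- replicate 1. Its direction was fixed by the rule, which kept every array of clone #18 apart from control, so only its size is given. It was at least 1 in size at 41 of the 47 higher and 58 of the 71 lower members. The smallest value was 0.24 at Z00030099-1, whose pooled difference is 1.33, so that its ratio difference rests on the Tmx- arrays of slide 2. Its Cy3 signal was 99.5 on the Tmx- array of slide 1 and 57.5 and 72.4 on those of slide 2. In control it was 37.0, 51.1 and 59.8. The larger ratios on slide 2 thus did not come with more sample signal. The reference was well above background on only 1 array at this probe, so the size of its ratio is not settled on either slide. On slide 2, which held 2 arrays of Tmx- and 2 of Tmx+, the tamoxifen difference stayed within 0.5 at 41 of the higher and 63 of the lower members, and ran from -1.12 to 0.97. These arrays also chose the members, and the part of slide in the differences was not tested.

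The reference channel moved little at most members. In the processed Cy3 signal alone, before any scaling between arrays, 46 of the 47 higher and all 71 lower members differed in the direction of the ratio. The Cy5 signal of the reference, which should be equal on all arrays, differed between the Tmx- and control arrays by a median size of 0.0973 at the higher and 0.0644 at the lower members on the log2 scale. It differed by 0.5 or more at 7 higher members and at no lower member. One of them, Z00007745-1, had a Cy3 difference of -0.38 and a Cy5 difference of -1.55. Its Cy3 signal was 65.4, 281 and 38.7 in control and 58.0 to 81.5 in Tmx-, so the sign of the Cy3 difference rests on control replicate 2. Its ratio was lowest on that array, at 0.41, so the reference signal was high there too. Whether its sample signal differed between the groups is therefore not settled. At Z00045777-1 and Z00030099-1 the Cy3 signal was higher by 0.81 and 0.62, less than the ratio differences of 1.39 and 1.33. At Z00063769-1, Z00027485-1, Z00022261-1 and Z00064627-1 the Cy3 signal was higher by more than the ratio, with more reference signal on the Tmx- arrays. The reference was well above background on 2 of 9 arrays at Z00022261-1 and Z00007745-1, on 1 at Z00030099-1 and on 0 at Z00045777-1. The size of the Cy5 difference is not measured at these probes. The 7 were named after their values were seen. Over all members, the reference was well above background on all 9 arrays at 40 higher and 63 lower members. It was so on no array at 2 higher members and 1 lower member.

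The sizes depended on the background correction and normalization, which were changed together. With normexp correction at offset 50 followed by loess, the clone differences kept their direction at 46 of 47 higher and all 71 lower members, but only 19 and 23 of them were still members under the same rule. The exception was Z00064627-1, at -0.06. Z00026567-1 came to 4.29 in place of 8.19 and Z00025949-1 to -0.89 in place of -3.82. The bright Z00021623-1 was at -2.70 in place of -2.90 and Z00023022-1 at -1.93 in place of -2.19. With this processing Z00070002-1 has the largest difference of the higher members and Z00021623-1 the largest of the lower ones.

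**Figure D4:**
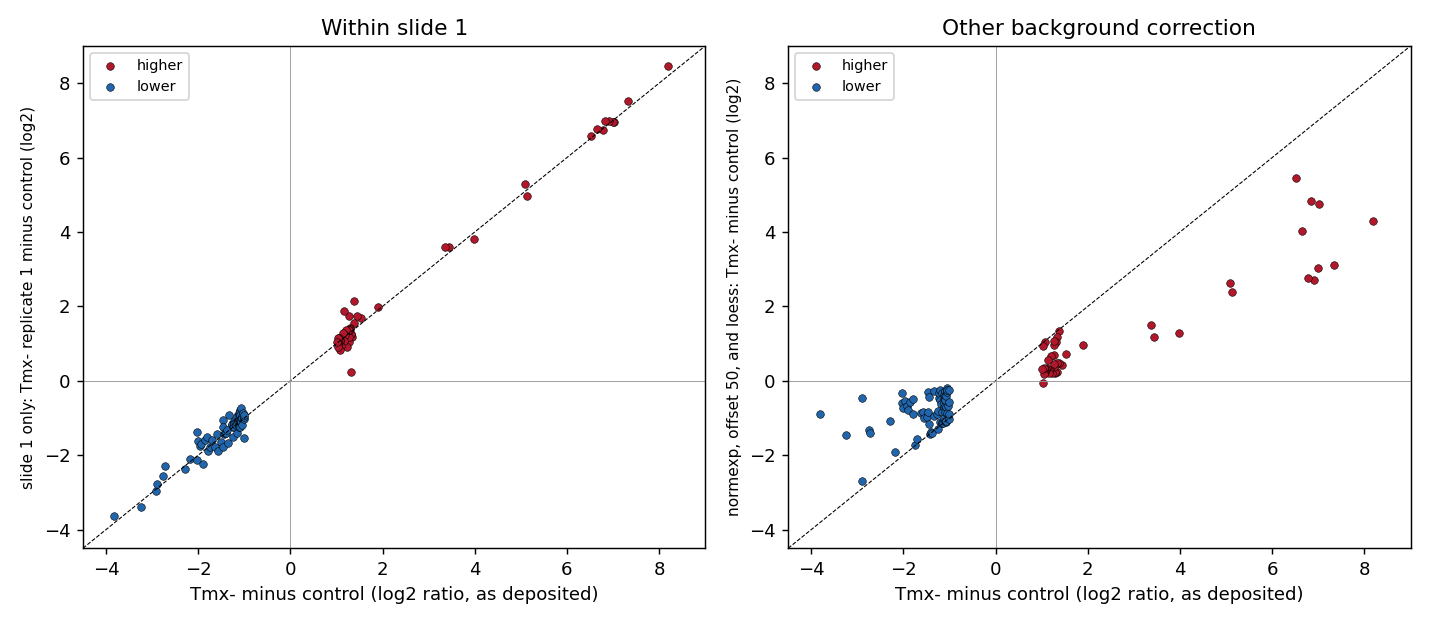
Clone difference of each member within slide 1 (left) and after normexp correction with offset 50 and loess (right) against the difference in the deposited ratio, all in log2, higher members in red and lower members in blue; the dashed line marks equal values. On the left most points lie near the line, with Z00030099-1 (0.24 against 1.33), Z00045777-1 (2.15 against 1.39), Z00007745-1 (1.89 against 1.17) and Z00041537-1 (-1.37 against -2.03) away from it, and on the right most lie nearer to 0 than the line, with Z00026567-1 at 4.29 against 8.19.

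Some members read related sequences. On the same strand, 9 members had another probe with at least 85% identity in an alignment of 30 bases or more. In 2 cases both probes are members, and they are shown because they may read the same transcript; capitals mark the bases they share, 33 in the first pair and 46 in the second.
Z00000336-1: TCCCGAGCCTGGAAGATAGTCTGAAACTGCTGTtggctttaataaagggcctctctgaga
Z00055328-1: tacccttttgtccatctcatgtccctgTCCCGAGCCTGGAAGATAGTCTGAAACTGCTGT
Z00059431-1: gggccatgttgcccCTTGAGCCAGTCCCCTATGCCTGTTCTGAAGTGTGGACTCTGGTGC
Z00074362-1: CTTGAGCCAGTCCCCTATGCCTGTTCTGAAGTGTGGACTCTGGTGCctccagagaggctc

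The partners had similar differences. Z00000336-1 differed by -1.38 between clones and Z00055328-1 by -1.26, with tamoxifen differences of 0.19 and 0.13. Z00059431-1 differed by -1.16 and Z00074362-1 by -1.13, with tamoxifen differences of -0.05 and -0.03. These pairs count as 4 members but need not be 4 transcripts, and whether they are was not tested.

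For 5 members the related probe missed the rule. Its spots are separate, but they read the same RNA on the same arrays. Z00074809-1 shares 42 bases with the lower member Z00023206-1 and was lower by 0.97 in Tmx- than in control (log2 difference -0.97, SE 0.13, limma adjusted p = 0.00175, n = 3 arrays per group). Z00032019-1 shares 36 bases with Z00071904-1 and had a difference of -0.90 (SE 0.15, limma adjusted p = 0.00431). Z00030372-1 shares 45 bases with Z00031878-1 and had a difference of -0.87 (SE 0.23, limma adjusted p = 0.0293). All 3 passed the test in the direction of the member and fell short of the limit of 1, while the members themselves stood at -1.09, -1.05 and -1.10. Over all tested probes 11.2% were called lower. Since the bases are shared and the members were chosen by their values, this is no independent check of the clone difference.

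The other 2 relatives are less alike in sequence. Z00024587-1 matches Z00031807-1 over 33 bases at 93.9% identity and had a clone difference of -2.50 (SE 0.64, limma adjusted p = 0.0278). Its tamoxifen difference was -0.86 (SE 0.64, limma adjusted p = 0.331), against -0.17 for the member, and it was well above background on 5 of the 9 arrays. Z00057246-1 matches the higher member Z00054501-1 over 58 bases at 87.9% identity and had a clone difference of 1.03 that did not pass the test (SE 0.36, limma adjusted p = 0.0802), against 1.16 for the member. Z00057246-1 was well above background on 5 of the 9 arrays. Z00054501-1 was so on no control array, with a bound of at least 1.23-fold. The error of both relatives is too wide to compare their sizes with those of the members.

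**Figure D5:**
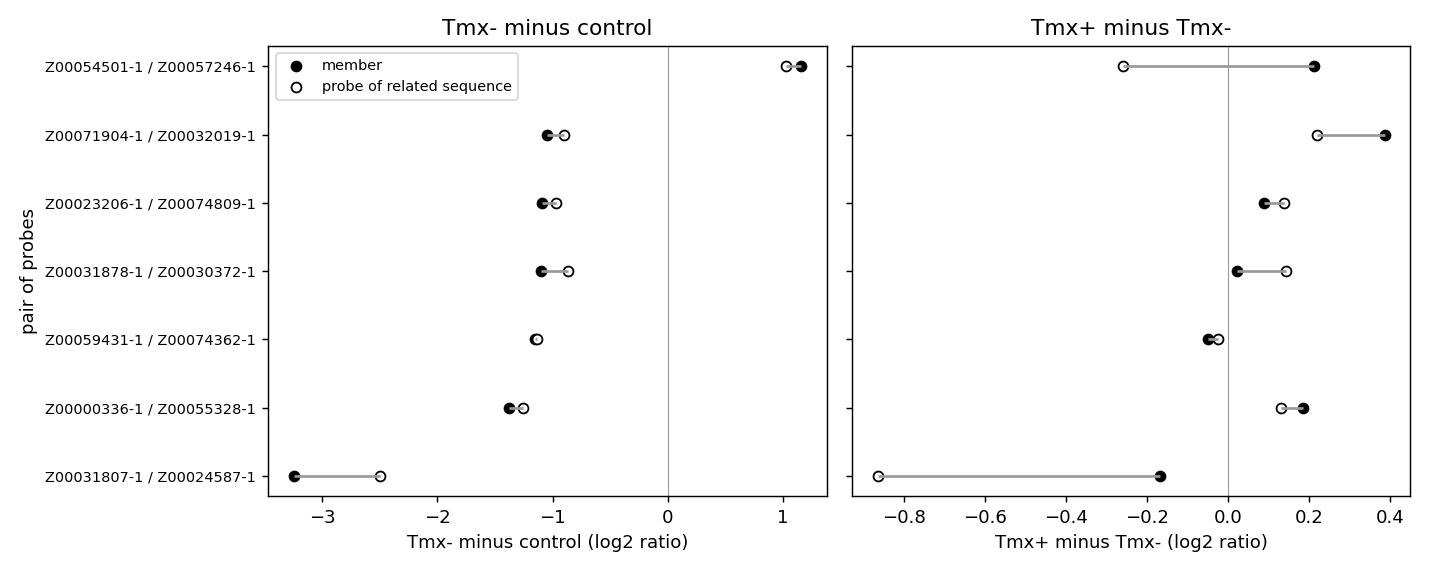
Difference between Tmx- and control (left) and between Tmx+ and Tmx- (right), in log2 ratio, for each of 7 pairs of probes with related sequence; filled points are the member named first and open points the related probe named second, which is itself a member in the pairs with Z00055328-1 and Z00074362-1. On the left both points of every pair lie on the same side of 0, and on the right the pairs of Z00031807-1 and Z00054501-1 lie farthest apart.

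One member matched a promoter window in full. Z00060294-1 matched over its full length to the RefSeq promoter window of Gm21936 in GRCm38.p6, which holds the 250 bases before and 50 after the annotated start of that gene. The match lies at chr12:87795362-87795421 on the plus strand, 138 to 79 bases upstream of the annotated start and on the strand of the gene, outside the annotated transcript, and matches elsewhere in the genome were not searched for. The sequence is shown because it is the only member with such a match.
Z00060294-1: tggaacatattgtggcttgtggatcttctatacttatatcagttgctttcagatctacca

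Z00060294-1 was higher by 1.21 in Tmx- than in control and by a further 0.28 in Tmx+. In all, 153 of the tested probes matched such a window in full, so that a match is uncommon for any probe of this array, and the other members matched none. The median GC content was 41.7% for the higher and 45.0% for the lower members, against 45.0% for all tested probes. AATAAA, read along the printed strand, was found in 3 higher members (6.38%) and 10 lower members (14.1%), against 7.68% of all tested probes, which have the same length of 60 bases. TTTATT, its reverse complement, was found in 2 higher members and 1 lower member, against 3.19% of tested probes. These shares rest on few probes and were not tested.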

How the data were processed

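RNA of 9 ES cell samples was measured on two-colour Agilent arrays, with the sample in Cy3 and the common reference in Cy5 on every array and no dye swap, per the labels. Per the file headers, the intensity columns and the log10 ratio were made by Agilent Feature Extraction 9.5.1.1, which corrects the background and normalizes the dyes. The deposited log10 ratio is red over green, and it was turned to log2 of Cy3 over Cy5 and averaged over spots of a probe. Control spots were left out. The value table that the authors deposited holds log10 values for 25030 probes, of which 32 higher and 53 lower members. How its rows were chosen is not given in the sources used here. It was used as an alternative.

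The members and lists were chosen with earlier results of these data known. The named probes are the 12 members with the largest clone difference in each direction, the 3 nearest to each limit on either side, and those with related sequences. Lists of marker genes could not be applied, since no probe carries a gene name. Tested were the 24757 probes, all 118 members included, that every array of 1 or more groups measured well above background in Cy3, with limma 3.58.1 under R 4.3.3 (lmFit and eBayes on all 9 arrays, Benjamini-Hochberg adjustment within each comparison, threshold 0.05, two-sided; flagged spots left out). With 3 arrays a group, the smallest exact permutation p is 0.1. The steps were tested on simulated data. The alternatives were normexp with offset 50 or 10 and loess, the value table, median centring, Cy3 alone, other filters and limits, each array left out, slide or replicate number as a block, and a variance trend. Related probes came from blastn 2.17.0. The number of arrays limits the precision.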

Additional observations from a re-analysis of the deposited data

How the results depend on the processing

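The number of members depended on the background correction and normalization, changed together, and on the limits. Normexp with offset 50 and loess gave 21 higher and 31 lower members, 19 and 23 of them among those described. Offset 10 gave 25 higher and 49 lower members, 23 and 38 of them among those described. Without the requirement on background there were 87 higher and 106 lower members, and with all 9 arrays well above background 22 higher and 46 lower. A clone difference of at least 1.5 left 16 and 22. With 1 array left out, the counts were 46 to 60 higher and 67 to 86 lower members. Leaving out Tmx- replicate 2 gave the 60, and control replicate 2 the 86. Of 1855 clone differences recomputed for the 118 members, 246 moved by more than the spread between arrays and 2 changed sign, Z00064627-1 to -0.058 with normexp at offset 50 and loess and Z00007745-1 to -0.43 with Cy3 alone. Many of the 1855 could not move, since leaving out a Tmx+ array or flagged spots leaves these differences as they were. Median centring and the value table also hardly changed them. The share that moved is therefore no measure of how stable the sizes are.

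Calls over all tested probes in Tmx- against control were 2991 higher and 2763 lower, and with Cy3 alone 250 and 419. With 1 array left out they were 1726 to 3397 higher and 1823 to 3415 lower, and the higher calls were 1894, 1726 and 1862 without control replicate 1, 2 or 3 and the lower calls 1823 without control replicate 2. With slide as a fixed block they were 4428 and 4076, and with slide as a random block 3727 and 3133, at an estimated correlation of 0.464 within slides. In Tmx+ against Tmx-, Cy3 alone gave 1257 and 1490 in place of 4896 and 4710. Deviations of same-numbered arrays correlated at -0.166 to 0.102, and those of differently numbered arrays of different groups at -0.159 to 0.230. With 3 arrays a group, these values cannot decide whether the numbers pair the arrays, and the labels do not say. The fit with the replicate block called 2063 and 2127 probes in Tmx- against control and 4273 and 4104 in Tmx+ against Tmx-. Low signal over background limits the sizes at the 15 higher members with no control array above background and at the 5 lower members with no array of clone #18 above it. It also bears on the 10 higher members above background on 1 or 2 control arrays. Among lower members it bears on the 18 above it on 1 or 2 Tmx- arrays and the 10 above it on no Tmx+ array. The 11 lower members above background on 1 or 2 Tmx+ arrays are limited in the same way.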
